A study of Mus musculus with 12 samples.

Results

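The response of 4T1 cells with a control guide RNA to FGF10 plus FGF2 was measured in 3 libraries of cells given both ligands and 3 libraries of cells given neither. These are 6 of the 12 libraries of the study, and every gene that passed a count filter was tested, 11844 of the 31017 gene symbols in the table. 4T1 is a mouse mammary carcinoma line. All 6 libraries came from cells nucleofected with Cas9 and control guide RNA and embedded in gels of collagen 1. In the FGF cultures the gels first stood in 10% serum with 25 ng/ml FGF10 and 40 ng/ml FGF2. They were then rinsed without serum the day after and kept in 2% serum with both ligands for 4 days, with fresh ligand every 2 days. The labels place the cultures without FGF in 2% serum and do not say whether they also had a first day in 10% serum. They name gels of 1.2 and of 2.4 mg/ml collagen without assigning either to a library. Cells were freed with collagenase before the RNA was taken, and polyA RNA was sequenced with strand information. The labels do not say that the 3 libraries of a group came from separate cultures, so the p-values speak only to the scatter among the libraries, and that scatter may be technical in origin. The other 6 libraries are of cells given an ETV4 guide, without and with FGF, and enter only where the responses are set side by side.

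FGF ligands bind receptor tyrosine kinases together with heparan sulphate chains carried by syndecans and glypicans. FGF10 acts mainly through the epithelial form of Fgfr2, and FGF2 acts mainly through Fgfr1 and the other mesenchymal receptor forms. The receptors signal through the adaptor Frs2 to RAS and ERK, to PI3K and to phospholipase C. ERK switches on immediate early genes, the PEA3 transcription factors Etv1, Etv4 and Etv5, and a set of inhibitors (sprouty proteins, dual-specificity phosphatases) that damp the signal. In the mammary gland FGF10 is a signal for bud formation and branching.

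The 6 libraries held 19461155 to 23193244 counts, so that a gene with 0 counts in a library could still stand at 0.129 to 0.154 CPM, the count scaled to the size of the library (3 counts, counting error only). Replicates differed by more than sampling noise (chi-square over its degrees of freedom 3.34 to 11.6). Each was counted as a sample, although this excess does not show that the libraries came from separate cultures. Replicate 2 of the FGF group stood apart from the other 5 libraries on the first principal component (32.8% of the variance). Its deviations followed the length of the transcripts (Spearman's rho of -0.40 across genes with exon length), and list counts that move by over 1.5 times without it are given both ways. All 10 epithelial markers were detected, at a summed level of 5364 to 5552 CPM (scaled by TMM) without FGF and 5569 to 6262 CPM with FGF. The fibroblast markers Dcn, Lum, Pdgfrb, Dpt and Thy1, 5 of 10 listed, had no count, and the 10 together reached 8.21 to 12.2 CPM. Of the leukocyte markers 5 of 10 had no count, Adgre1, Itgam, Cd3e and Tyrobp among them, with a summed level of 17.8 to 20.8 CPM. The fibroblast marker Pdgfra and the leukocyte markers Cd68 and Cd14 did pass the count filter, and none of them was called. Kdr, Emcn, Erg and Cldn5 were at 0 among the 8 endothelial markers, whose sum was at most 0.732 CPM.

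Between cells with and without FGF10 plus FGF2, 228 genes differed, 1.93% of those tested, in the edgeR quasi-likelihood test at an adjusted p under 0.05. Of these, 130 were higher with FGF (1.10%) and 98 were lower (0.827%). The labels do not say whether the first day in 10% serum differed too, and its part was not tested. The changes were small: the median of the higher genes was a log2 fold change of 0.36 (1.28-fold), and that of the lower genes was -0.45 (1.36-fold). Changes of at least 2-fold were found for 6 higher and 10 lower genes, and changes of at least 1.5-fold for 21 and 33. In all 228 genes the 3 values with FGF lay outside the range of the 3 without, which was so for 18.4% of all genes tested. Over all genes the median log2 fold change was 0.00, with quartiles at -0.09 and 0.08. In bulk RNA a lower level in every cell and a smaller share of cells with that RNA cannot be told apart.

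The count moved with most single libraries. Without FGF replicate 1 it was close, at 112 higher and 87 lower. Without control replicate 1, 2 or 3 it was 69, 57 or 74 higher and 55, 52 or 81 lower, without FGF replicate 3 it was 78 and 69. Without FGF replicate 2 it rose to 201 higher (1.68% of the genes then tested) and 139 lower (1.16%), together 2.84%. A fit that took its spread from all 12 libraries called 31 and 28. No gene called here changed sign in any of these fits. Lower genes had longer transcripts (median 5173 bases of exon) than higher genes (3582 bases) and than all genes tested (4434 bases), and the log2 fold change followed exon length across genes with a rho of -0.23, which was -0.04 without FGF replicate 2. The part of transcript length in the calls was not tested beyond that.

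**Figure D1:**
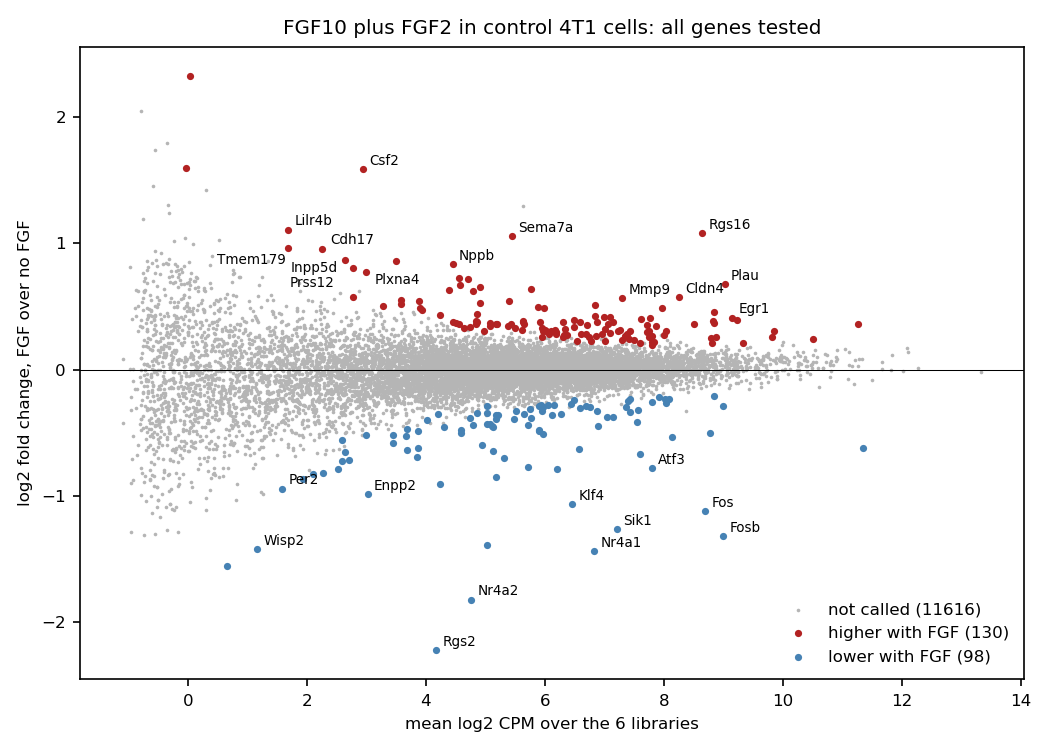
Each point is one of the 11844 genes tested, with its mean log2 CPM over the 6 libraries on the x axis and its log2 fold change (FGF over no FGF) on the y axis. Genes called higher (130) are red, genes called lower (98) are blue and the rest are grey. The lowest blue point is Rgs2 at -2.23, and Csf2 at 1.59 is the highest labelled red point.

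The largest decreases, among genes averaging a log2 CPM of 1 or more, included several regulators that cells switch on within minutes of a stimulus. Rgs2, which shortens signalling by heterotrimeric G proteins (ENSMUSG00000026360, minus strand, mm10 chr1:143999338-144004161), stood at 28.9, 28.5 and 31.8 CPM without FGF and at 7.47, 5.12 and 6.30 CPM with FGF. It fell 4.68-fold (log2 -2.23, SE 0.118, adjusted p = 8.71e-09). The groups did not overlap, and the highest FGF library was far under the lowest library without FGF. Sik1, a kinase that holds back CREB co-activators, went from 214, 211 and 201 CPM to 87.1, 78.8 and 93.9 CPM (log2 -1.27, SE 0.0635, adjusted p = 6.25e-09). Among the 10 largest decreases were also Wisp2, a secreted matricellular protein (-1.42, SE 0.260, adjusted p = 0.00655), and Enpp2, which makes lysophosphatidic acid (-0.99, SE 0.122, adjusted p = 0.00022). The circadian repressor Per2 closed that group at -0.94 (SE 0.222, adjusted p = 0.0376). The call of Per2 was lost without any 1 of control replicates 1, 2 and 3 or FGF replicate 1. Wisp2 was at a low level, 2.89 to 3.31 CPM without FGF and 0.941 to 1.64 CPM with FGF. In the fit on all 12 libraries both Wisp2 and Per2 lost their calls.

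Above the same level and leaving out predicted genes, the largest increase was in Csf2, which encodes the cytokine GM-CSF (ENSMUSG00000018916, minus strand, chr11:54247271-54249667). Its levels were 4.72, 3.33 and 3.25 CPM without FGF and 12.3, 11.2 and 10.5 CPM with FGF. That was a 3.01-fold rise (log2 1.59, SE 0.153, adjusted p = 1.55e-05), and the groups were far apart. Rgs16, another member of the family of Rgs2, changed the other way: it was at 248, 241 and 279 CPM without FGF and at 521, 567 and 537 CPM with FGF (2.11-fold, log2 1.08, SE 0.0598, adjusted p = 1.20e-08). Sema7a, a membrane-anchored semaphorin, rose from 28.9, 28.7 and 27.3 CPM to 59.3, 61.0 and 56.5 CPM (log2 1.06, SE 0.0675, adjusted p = 7.74e-08). The semaphorin receptor Plxna4 was 1.71-fold higher (adjusted p = 0.0112), a call lost without control replicate 3 or FGF replicate 3.

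Of the rest of the 10 largest increases, all but Nppb stood under 10 CPM in every library. The cadherin Cdh17 rose from 3.02, 3.13 and 3.30 CPM to 5.83, 6.17 and 6.40 CPM (log2 0.96, SE 0.155, adjusted p = 0.00229). Nppb, the natriuretic peptide BNP, rose 1.78-fold (log2 0.83, SE 0.0878, adjusted p = 3.62e-05), and the serine protease gene Prss12 rose 1.75-fold (0.81, SE 0.131, adjusted p = 0.00243). Tmem179 rose by a log2 of 0.97 (adjusted p = 0.0123), a call lost without control replicate 1 or 2. Lilr4b, an immunoglobulin-like receptor (1.11, adjusted p = 0.00876), and Inpp5d, the inositol phosphatase SHIP1 (0.87, adjusted p = 0.0112), are best known from leukocytes. Lilr4b lost its call without control replicate 1 (adjusted p = 0.0587), and Inpp5d without control replicate 1 or 3 or FGF replicate 3. Lilr4b has near-identical relatives, so its counts are uncertain.

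**Figure D2:**
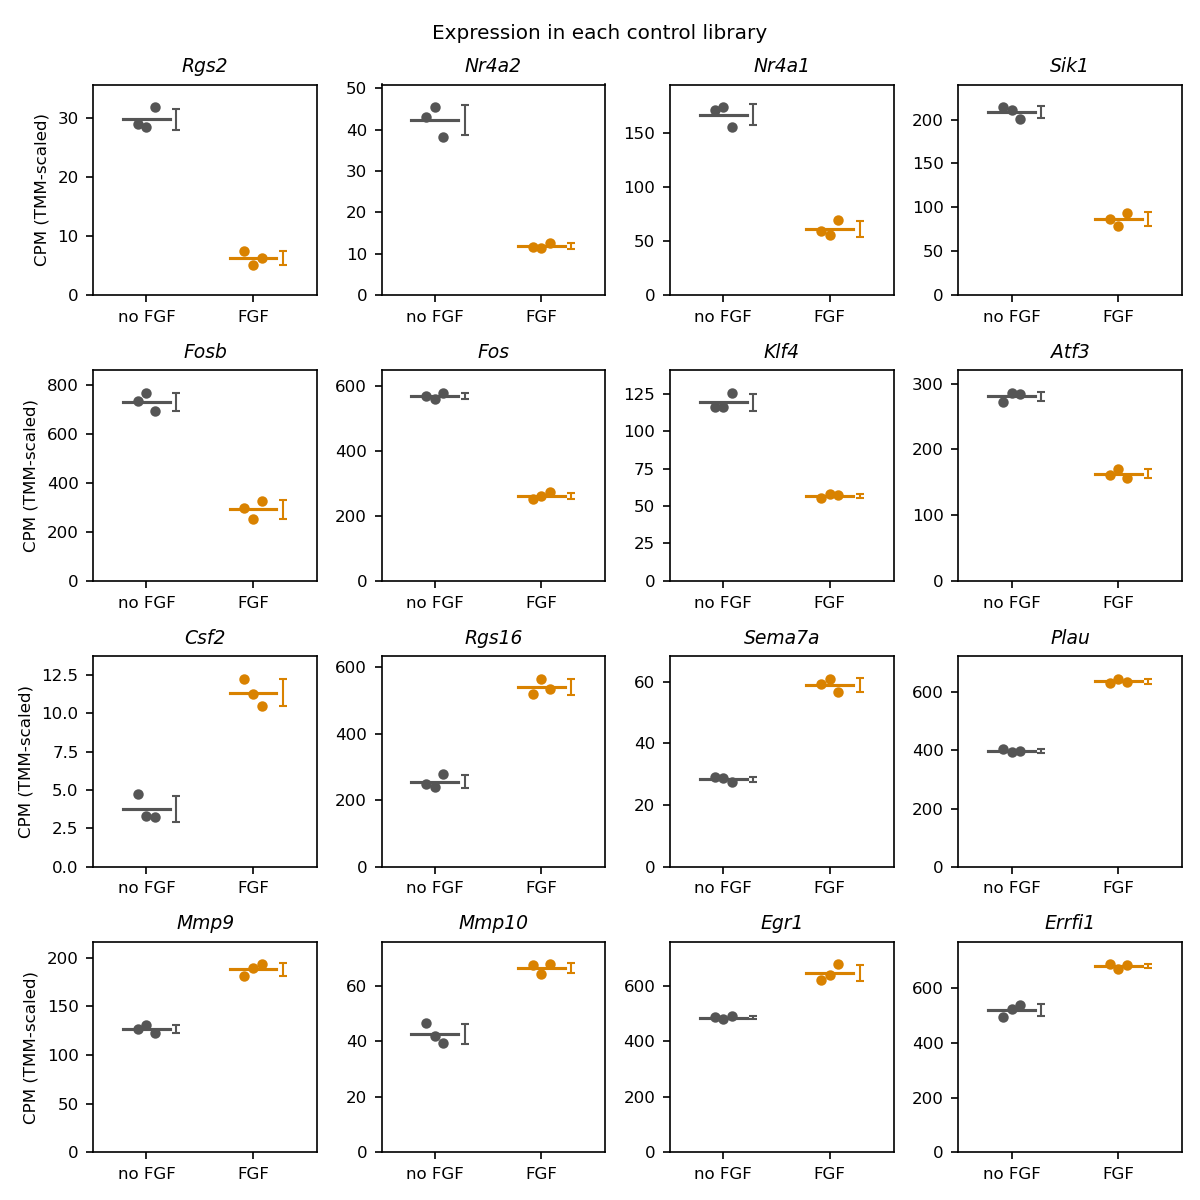
Expression of 16 genes in each control library, in TMM-scaled CPM from 0, without FGF (grey) and with FGF (orange). Points are libraries, horizontal lines are means and bars are 1 SD (n = 3). In every panel the 2 groups are separated, with Rgs2 at 5.12 to 7.47 CPM against 28.5 to 31.8 CPM.

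At the level of the ligands, the cells themselves made little FGF RNA. Of 22 ligand genes listed, 3 passed the count filter and 0 were called. Fgf11, an intracellular family member, was at 5.25 ± 0.551 CPM without FGF and 6.40 ± 0.718 CPM with FGF (SD, n = 3; log2 0.29, edgeR adjusted p = 0.451), Fgf20 differed by 0.09 (adjusted p = 0.930) and Fgf1 by -0.06 (adjusted p = 0.958). Neither ligand that was added was tested: Fgf10 had 0 counts in all 6 libraries, and Fgf2 had 1 to 6 counts in a library. Of the 19 ligands left out, 10 had no count in any of the 6 libraries and the highest count was 14, of Fgf7 and Fgf17.

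Among 13 receptor and co-receptor genes tested, 1 was called. Sdc1, the syndecan whose heparan sulphate presents FGFs to their receptors, was at 439, 429 and 423 CPM without FGF and at 494, 538 and 512 CPM with FGF. It rose 1.20-fold (log2 0.26, SE 0.0495, adjusted p = 0.00945), a call lost without control replicate 2 or 3. Fgfr2, the receptor of FGF10, was at 145, 137 and 134 CPM without FGF and at 119, 65.7 and 119 CPM with FGF. All 3 FGF libraries were under the others, and replicate 2 was far under its own group (log2 -0.45, SE 0.147, adjusted p = 0.168). Without FGF replicate 2 the difference was smaller and called (-0.22, SE 0.0508, adjusted p = 0.00778), and a fit on every gene with a count and the fit with a replicate block called it too. Fgfr1 was at 14.3, 13.1 and 10.6 CPM without FGF and 10.8, 9.30 and 9.72 CPM with FGF, so that the groups overlapped (-0.35, adjusted p = 0.220). Fgfr3 (-0.02), the decoy-like receptor Fgfrl1 (-0.01) and the carrier Fgfbp1 (0.02) had adjusted p-values of 0.952 to 0.970, and each changed sign when single libraries were left out. The cell-surface proteoglycans Sdc2 (-0.13), Gpc1 (-0.06), Sdc3 (0.06), Sdc4 (0.09) and Gpc4 (0.15), the carrier Fgfbp3 (0.17) and the receptor partner Flrt3 (0.16) were not called. Fgfr4 had 2 counts in 1 library and 0 in the others, and 7 further listed co-receptor genes had no count. The list's median log2 fold change was 0.02. None of the 32 adaptors and kinases that carry the signal, such as Frs2 and Akt1, was called (median log2 -0.00, range -0.26 to 0.26).

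The list of ERK feedback inhibitors held 23 genes, and not all of them are known to be induced by ERK. Of these, 5 were higher, 1 was lower and 17 were not called, with a median log2 fold change of 0.16. Errfi1, which blocks the EGF receptor kinase, was at 495, 524 and 537 CPM without FGF and 685, 670 and 683 CPM with FGF (log2 0.39, SE 0.0488, adjusted p = 0.000239). The lowest FGF library was well above the highest library without FGF. The sprouty genes, which block the step from receptor to RAS, were split: Spry4 rose from 24.7, 24.4 and 26.0 CPM to 32.3, 31.6 and 33.5 CPM (0.37, SE 0.0729, adjusted p = 0.0103) and Spry2 from 145, 155 and 153 CPM to 182, 184 and 184 CPM (0.28, SE 0.0505, adjusted p = 0.00553), while Spry1 was at 65.1, 60.5 and 67.4 CPM against 54.1, 57.5 and 61.9 CPM (-0.15, adjusted p = 0.352). Among phosphatases that switch off ERK and its relatives, Dusp5 (0.36, SE 0.0604, adjusted p = 0.00295) and Dusp9 (0.32, SE 0.0615, adjusted p = 0.0104) rose. Dusp6, a phosphatase often read as a gauge of FGF signalling, was at 311, 306 and 313 CPM without FGF and 347, 342 and 377 CPM with FGF. Its groups were apart, but the difference of 0.20 was not called (SE 0.0514, adjusted p = 0.0642). It was called without FGF replicate 2 (0.22, adjusted p = 0.00256) and by DESeq2 (adjusted p = 0.0256).

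Dusp1 was the inhibitor that fell, from 215, 205 and 221 CPM to 152, 166 and 163 CPM (log2 -0.41, SE 0.0541, adjusted p = 0.000328). Il17rd, a membrane inhibitor of FGF signalling, was at 1.69 ± 0.129 CPM without FGF and 2.66 ± 0.670 CPM with FGF (SD, n = 3; 0.67, SE 0.249, adjusted p = 0.244), a wide spread at a low level. The other 14 inhibitors were not called: Dusp2 (0.49), Dusp14 (0.22), Spred3 (0.19), Dusp7 (0.16), Dusp8 (0.16), Rasa1 (0.02), Spred2 (0.01), Dusp16 (-0.01), Dusp4 (-0.05), Nf1 (-0.05), Spred1 (-0.06), Lrig1 (-0.07), Rasa2 (-0.08) and Dusp10 (-0.10). Spry4 lost its call without control replicate 1 or 2 or FGF replicate 3, Spry2 without control replicate 1, and Dusp9 without control replicate 1 or 2. The number of higher members was 2 without control replicate 1, 3 without control replicate 2, 7 without FGF replicate 2, and 1 in the fit on all 12 libraries. Dusp1 was called lower in every setting run.

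The PEA3 factors did not pass the test. Etv4, which branching epithelia use as an FGF target, was at 174, 168 and 173 CPM without FGF and at 160, 179 and 174 CPM with FGF (log2 -0.01, SE 0.0549, adjusted p = 0.967), so that the groups overlapped. Etv5 was at 64.7, 62.7 and 63.9 CPM without FGF and at 70.9, 71.5 and 71.6 CPM with FGF. The Etv5 groups were apart by a small step (0.16, SE 0.0564, adjusted p = 0.209). Etv1 was at 109, 113 and 110 CPM without FGF and at 102, 93.4 and 108 CPM with FGF (-0.13, adjusted p = 0.383).

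**Figure D3:**
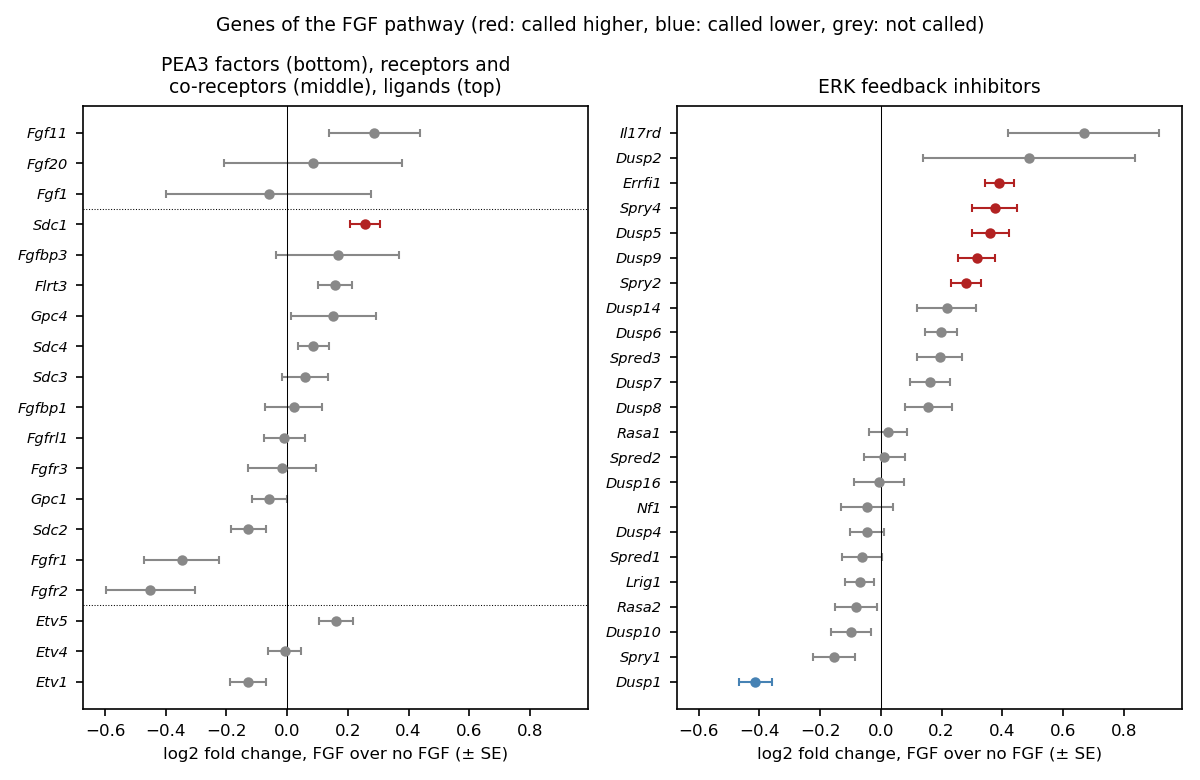
Log2 fold change with FGF (points, FGF over no FGF) and its SE (bars) for the tested ligands, receptors and co-receptors, PEA3 factors (left) and ERK feedback inhibitors (right). Red points were called higher, blue points lower and grey points not called. Errfi1, Spry4, Dusp5, Dusp9, Spry2 and Sdc1 are to the right of 0, and Dusp1 at -0.41 to the left.

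Immediate early genes, which ERK and cAMP signals switch on without new protein, moved in both directions. Of 27 tested, 7 fell and 5 rose, with a list median of -0.06. The orphan nuclear receptor Nr4a2 was at 43.1, 45.4 and 38.2 CPM without FGF and 11.7, 11.4 and 12.7 CPM with FGF, a 3.54-fold drop (log2 -1.82, SE 0.0888, adjusted p = 6.03e-09). Its relative Nr4a1 went from 171, 174 and 156 CPM to 58.9, 55.6 and 69.6 CPM (-1.44, SE 0.0754, adjusted p = 8.71e-09). Both receptors were well separated between the groups. The AP-1 subunit Fosb fell from 734, 768 and 693 CPM to 300, 252 and 326 CPM (-1.32, SE 0.0754, adjusted p = 1.61e-08). Fos, the founding AP-1 subunit, fell from 568, 559 and 578 CPM to 252, 260 and 273 CPM (-1.12, SE 0.0497, adjusted p = 2.94e-09). The transcription factors Klf4 (-1.07, SE 0.0578, adjusted p = 9.97e-09) and Atf3 (-0.78, SE 0.0519, adjusted p = 1.19e-07) were lower too, as was Csrnp1 (-0.37, adjusted p = 0.000743). The number of lower members was 7 or 8 without each single library in turn and 7 in every other setting run.

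The 5 members that rose did so by less. Egr1, a zinc-finger factor induced through ERK and SRF, was at 488, 480 and 491 CPM without FGF and 623, 639 and 678 CPM with FGF (log2 0.41, SE 0.0492, adjusted p = 0.000156). The FGF libraries of Egr1 were all higher while those of Fos were all lower. Phlda1 (0.36, adjusted p = 0.000586), Ier2 (0.25, adjusted p = 0.0239), Myc (0.22, adjusted p = 0.0293) and Ier3 (0.21, adjusted p = 0.0443) were the others. Only 2 members were called higher without control replicate 1, 2 or 3, without FGF replicate 3 or with a replicate block, and 1 in the fit on all 12 libraries. The remaining AP-1 genes Jun (-0.01), Junb (-0.10), Jund (-0.14), Fosl1 (0.10) and Fosl2 (-0.14) were not called.

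Several of these genes are also known to respond to heat and to enzymatic dissociation, a step that every gel went through. In a list of 19 such genes tested, 4 were lower (Fos, Atf3, Dusp1 and the heat shock gene Hspa1b at -0.38) and 2 were higher (Egr1 and Ier2), with a list median of 0.04. The higher ones numbered 3 without FGF replicate 2 and 1 without control replicate 1, 2 or 3 or FGF replicate 3. The chaperones Hspa8 (0.05), Hsp90aa1 (0.06) and Dnajb1 (0.03) were not called. The part of the harvest in the result was not tested. Loci that are known to collect ribosomal RNA reads were also lower with FGF: Gm42418 by -0.62 (adjusted p = 0.00224) and Lars2 by -0.67 (adjusted p = 0.000743). Gm42418 took 0.309% to 0.334% of the counts in the libraries without FGF and 0.165% to 0.249% in those with FGF, and its part in the other changes was not tested.

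The promoters of the lower immediate early genes were read for the cAMP response element, the DNA letters that CREB binds, because these genes moved together. RefSeq promoters of build GRCm38.p6 matched 9184 of the tested genes, and the 250 bases before each start were searched on both strands. A gene with several promoters was counted if any of them matched. All 7 lower immediate early genes (Nr4a2, Nr4a1, Fosb, Fos, Klf4, Atf3 and Csrnp1) held the half-site TGACG at least once. The half-site was in 31.5% of the 9184 genes. It was found in 5 of 11 members that were not called, in 31.8% of all higher genes with a promoter and in 37.9% of all lower ones. The full palindrome TGACGTCA, which contains the half-site, was in none of the 7 and in 3.28% of all genes with a promoter. The CArG site, the letters that SRF binds, was searched as well. It was in none of the 7, in 3 of 11 members not called and in 1.33% of all genes with a promoter. Of the 5 members that rose, 1 had a promoter, without a half-site, so the genes that rose give no contrast. Because these windows were searched after the genes were known, the counts are a description of letters and not of binding. Shown are Fos (chr12:85473640-85473889, plus strand), Nr4a1 (chr15:101266596-101266845, plus strand), Nr4a2 (chr2:57124004-57124253, minus strand) and the feedback phosphatase Dusp1 (chr17:26508473-26508722, minus strand), chosen after the matches were seen as lower genes with 2 or more of them. Each runs 5′ to 3′ up to the base before the start, and capitals mark TGACG or its reverse complement CGTCA.
Fos: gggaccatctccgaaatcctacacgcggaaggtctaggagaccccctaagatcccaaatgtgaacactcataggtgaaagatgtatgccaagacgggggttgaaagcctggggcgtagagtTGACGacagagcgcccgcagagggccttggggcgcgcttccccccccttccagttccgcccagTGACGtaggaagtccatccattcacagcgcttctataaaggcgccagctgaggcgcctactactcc
Nr4a1: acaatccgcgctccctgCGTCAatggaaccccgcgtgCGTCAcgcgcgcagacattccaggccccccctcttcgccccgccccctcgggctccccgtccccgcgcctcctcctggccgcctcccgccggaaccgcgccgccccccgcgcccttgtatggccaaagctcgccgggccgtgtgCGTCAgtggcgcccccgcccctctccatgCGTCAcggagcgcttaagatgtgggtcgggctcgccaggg
Nr4a2: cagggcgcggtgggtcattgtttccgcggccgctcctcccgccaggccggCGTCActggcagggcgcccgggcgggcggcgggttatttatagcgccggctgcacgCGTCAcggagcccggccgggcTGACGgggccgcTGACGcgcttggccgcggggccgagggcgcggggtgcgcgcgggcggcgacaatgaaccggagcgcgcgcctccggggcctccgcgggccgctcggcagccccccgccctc
Dusp1: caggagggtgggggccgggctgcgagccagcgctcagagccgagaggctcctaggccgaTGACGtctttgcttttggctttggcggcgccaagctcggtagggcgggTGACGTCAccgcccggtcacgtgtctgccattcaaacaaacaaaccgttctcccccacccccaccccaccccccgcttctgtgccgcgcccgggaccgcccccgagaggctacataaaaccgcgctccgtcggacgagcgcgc
Fos has 2 matches, at 129 and 66 bases before its start, Nr4a1 and Nr4a2 have 4 each, and Dusp1 has 3, of which an overlapping pair forms the full palindrome.

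Of 24 tested genes for matrix proteases and their inhibitors, 6 were higher, 0 lower and 18 not called, with a list median of 0.20. Plau, the urokinase that activates plasminogen (ENSMUSG00000021822, plus strand, chr14:20836660-20843385), was at 407, 394 and 397 CPM without FGF and 631, 648 and 636 CPM with FGF. This rise had the smallest SE of the 6 (log2 0.68, SE 0.0464, adjusted p = 1.77e-07). The gelatinase Mmp9 went from 127, 131 and 123 CPM to 181, 190 and 193 CPM (0.57, SE 0.0528, adjusted p = 1.07e-05), and the stromelysin Mmp3 from 210, 207 and 209 CPM to 282, 294 and 302 CPM (0.49, SE 0.0489, adjusted p = 2.18e-05). The second stromelysin, Mmp10, went from 46.4, 42.1 and 39.3 CPM to 67.4, 64.3 and 67.7 CPM (0.64, SE 0.0702, adjusted p = 5.55e-05). No group overlapped in these genes. Serpine2, an inhibitor of urokinase and thrombin, rose as well (0.67, SE 0.0860, adjusted p = 0.000273), as did the lysosomal protease Ctsl (0.36, adjusted p = 0.000833). The collagenase Mmp13 was at 51.2, 56.0 and 56.5 CPM without FGF and 60.5, 52.8 and 55.9 CPM with FGF, overlapping groups that differed by 0.05 (adjusted p = 0.814). The membrane protease Mmp14 (-0.08), the urokinase receptor Plaur (0.17) and the inhibitors Timp1 (0.23) and Timp2 (-0.03) were not called, nor were Mmp11 (-0.16) and Plat (-0.08). The count of higher members was 6 without each single library in turn.

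Plau, Mmp9, Mmp3 and the transcription factor Sox9 (0.27, SE 0.0472, adjusted p = 0.00428) are also genes reported elsewhere as PEA3 targets. They were the 4 called of 17 such genes tested, all higher, beside a list median of 0.06. Ccnd1 (0.15), Erbb2 (-0.20), Spp1 (-0.05), Ptgs2 (-0.01) and Vim (-0.12) from the same list were not called. Sox9 lost its call without control replicate 2.

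The AP-1 motif TGANTCA was searched in the same windows, since matrix proteases are textbook AP-1 genes and the subunits Fos and Fosb fell here. The AP-1 genes Jun, Junb, Jund, Fosl1 and Fosl2 were not called. The motif was in 11.4% of higher genes with a promoter, 15.2% of lower genes and 5.63% of all 9184. Of the 6 proteolysis genes that rose, 4 had a RefSeq promoter and 2 of these a match. Serpine2 and Ctsl had none, and Plau and Mmp9 were not in the promoter table. Shown, chosen after the matches were seen, are Mmp3 (chr9:7445572-7445821, plus strand) and Mmp10 (chr9:7502092-7502341, plus strand), which hold 1 match each, and the claudin gene Cldn4 (chr5:134946935-134947184, minus strand), described further on, which holds 2. Capitals mark TGANTCA on either strand.
Mmp3: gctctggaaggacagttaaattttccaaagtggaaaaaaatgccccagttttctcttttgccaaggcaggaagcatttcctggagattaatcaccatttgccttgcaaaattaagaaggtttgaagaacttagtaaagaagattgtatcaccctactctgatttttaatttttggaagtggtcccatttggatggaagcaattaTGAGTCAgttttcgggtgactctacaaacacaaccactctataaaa
Mmp10: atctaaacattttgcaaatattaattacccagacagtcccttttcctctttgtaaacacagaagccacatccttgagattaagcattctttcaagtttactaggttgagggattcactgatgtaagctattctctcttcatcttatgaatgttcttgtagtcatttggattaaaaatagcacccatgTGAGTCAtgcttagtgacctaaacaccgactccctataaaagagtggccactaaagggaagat
Cldn4: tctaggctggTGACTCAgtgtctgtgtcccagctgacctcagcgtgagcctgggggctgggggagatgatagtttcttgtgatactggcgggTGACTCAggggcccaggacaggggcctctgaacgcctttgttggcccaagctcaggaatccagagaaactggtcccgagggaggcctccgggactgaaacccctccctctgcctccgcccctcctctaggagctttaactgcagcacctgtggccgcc
The match lay 46 bases before the start of Mmp3 and 63 bases before that of Mmp10, and those of Cldn4 at 240 and 158 bases. The motif CCGGAAGT of ETS factors, the family of Etv4, was in 7.22% of all genes with a promoter. It was in 1 of 88 higher genes with a promoter (1.14%) and in 2 of 66 lower ones (3.03%). These counts are small, and the difference was not tested.

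Of 9 genes for ligands and receptors of the EGF receptor family, 4 were higher and 0 lower (list median 0.24), and in the fit on all 12 libraries 1 was higher. Btc was at 19.3, 23.4 and 22.7 CPM without FGF and 34.7, 32.7 and 33.3 CPM with FGF (log2 0.62, SE 0.0841, adjusted p = 0.000434). Areg, the ligand of ductal growth in the mammary gland, went from 98.8, 108 and 101 CPM to 130, 144 and 125 CPM (0.38, SE 0.0625, adjusted p = 0.00287). In both the groups were apart. Hbegf (0.31, SE 0.0498, adjusted p = 0.00229) and Tgfa (0.29, SE 0.0559, adjusted p = 0.00998) were the other called ligands, and the call of Tgfa was lost without control replicate 2 or 3 or FGF replicate 3. The ligands Epgn (0.24, SE 0.476) and Nrg1 (0.21, SE 0.0928) and the receptors Egfr (0.04), Erbb2 (-0.20) and Erbb3 (-0.03) were not called.

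Of 4 Notch ligand genes tested, 3 rose, and Jag2 was at -0.24 and not called (adjusted p = 0.358). Dll4 went from 36.1, 32.1 and 34.2 CPM to 49.6, 51.0 and 49.0 CPM (log2 0.55, SE 0.0688, adjusted p = 0.000242). Jag1 went from 111, 110 and 106 CPM to 155, 136 and 145 CPM (0.42, SE 0.0581, adjusted p = 0.000638), and Dll1 rose by 0.33 (SE 0.0633, adjusted p = 0.00986). The groups of Dll4 and Jag1 did not overlap, and the call of Dll1 was lost without control replicate 2 or 3 or FGF replicate 3. These were the 3 called of 12 Notch pathway genes tested (list median 0.01), and 1 member was called lower without control replicate 2 or 3. In the fit on all 12 libraries 1 member was called higher. The receptors Notch1 (-0.29), Notch2 (-0.10), Notch3 (-0.43) and Notch4 (0.50) and the target Hes1 (-0.13) did not pass the test.

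Of 4 Id genes tested, which BMP signalling switches on and which hold back differentiation, 3 fell, and Id4 was at -0.06 and not called (adjusted p = 0.855). Id1 was at 45.7, 45.2 and 48.2 CPM without FGF and 22.6, 29.2 and 25.5 CPM with FGF (log2 -0.85, SE 0.0861, adjusted p = 2.33e-05). Id3 went from 117, 111 and 120 CPM to 70.7, 81.4 and 72.6 CPM (-0.63, SE 0.0630, adjusted p = 2.16e-05). Both were lower in every FGF library, and Id2 (-0.33, adjusted p = 0.0109) and the ligand Tgfb3 (-0.29, adjusted p = 0.0169) were lower too. In the same list of 20 TGF-beta and BMP genes, 2 rose: Inhba, a subunit of activin (0.40, SE 0.0533, adjusted p = 0.000412), and Pmepa1, a feedback inhibitor of TGF-beta (0.32, SE 0.0578, adjusted p = 0.00555). The list median was -0.10. The lower members numbered 2 without control replicate 1 or 3, and the higher ones 1 without control replicate 1 or 2. None of 9 Wnt genes and none of 15 YAP-TEAD targets was called, among them Ctgf (-0.36) and Cyr61 (0.21). Without FGF replicate 1 or FGF replicate 2, 1 YAP-TEAD target was called higher.

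Cytokine genes were divided. Beside Csf2, Csf3, which encodes G-CSF, rose from 205, 213 and 195 CPM to 255, 264 and 262 CPM (log2 0.35, SE 0.0510, adjusted p = 0.000929), and the chemokine Cxcl16 rose by 0.23 (adjusted p = 0.0216). The neutrophil chemokine Cxcl5 fell from 67.3, 68.9 and 63.6 CPM to 37.8, 38.9 and 40.1 CPM (-0.77, SE 0.0642, adjusted p = 2.37e-06). Csf1, the macrophage growth factor, fell by 0.30 on the log2 scale (SE 0.0528, adjusted p = 0.00428) and the adhesion molecule Vcam1 by 0.45 (adjusted p = 0.0140). Of the 3 colony-stimulating factors, 2 were thus higher and 1 lower, with no overlap between groups. These were the 6 called of 29 genes, beside a list median of 0.03. Without FGF replicate 2, 4 rather than 3 were lower, and in the fit on all 12 libraries 1 was higher and 1 lower. In the interferon list Irf1 (-0.44, SE 0.0706, adjusted p = 0.00227) and Gbp2 (-0.53, SE 0.112, adjusted p = 0.0175) were lower of 24 tested, and in the list of MHC class I genes the peptide transporters Tap1 (-0.52, adjusted p = 0.0496) and Tap2 (-0.34, adjusted p = 0.0356) of 20. Gbp2 and Tap2 lost their calls without control replicate 1 or 2 or FGF replicate 1 or 3, and Tap1 without any single library. Without FGF replicate 2, 4 class I genes were called lower. In the fit on all 12 libraries no gene of the interferon list or the class I list was called. H2-K1 (0.04), H2-D1 (0.01) and B2m (0.06), the class I chains themselves, were not called.

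Among epithelial genes, a claudin and some laminin chains rose, and most junction genes were not called. Of 32 junction genes (list median -0.01), Cldn4, a tight junction claudin, was the member that rose, from 242, 241 and 250 CPM to 350, 382 and 359 CPM (log2 0.57, SE 0.0511, adjusted p = 5.99e-06). Ovol1, a transcription factor of epithelial differentiation, was the member that fell (-0.49, SE 0.105, adjusted p = 0.0207), a call lost without control replicate 1 or 3 or FGF replicate 1. The adhesion genes Cdh1 (-0.07), Epcam (0.13), Tjp1 (-0.08) and Dsp (-0.16) were not called. Without FGF replicate 1, 2 junction genes were called higher. Lamb3, which encodes a laminin chain of epithelial basement membranes, went from 404, 376 and 379 CPM to 510, 541 and 538 CPM (0.45, SE 0.0505, adjusted p = 6.42e-05). Lama3, another laminin chain gene, rose by 0.38 (SE 0.0548, adjusted p = 0.000771). Among other laminin chains, Lamb2 fell (-0.28, SE 0.0573, adjusted p = 0.0144), and Lamb1 (0.01), Lamc1 (-0.15) and Lama5 (-0.10) were not called. With Sfn, an epithelial 14-3-3 protein (0.52, SE 0.0635, adjusted p = 0.000218), Lamb3 and Lama3 were among the 4 called of 10 basal genes, where the keratin Krt14 (-0.22) and the integrin Itgb4 (-0.04) were not called. Without FGF replicate 2, 5 basal genes were called higher and 1 lower. In the fit on all 12 libraries 2 were higher, and Sfn lost its call (adjusted p = 0.251).

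Matrix genes were mostly lower where they changed. Col6a1 fell from 39.7, 35.8 and 35.0 CPM to 23.3, 24.0 and 25.6 CPM (log2 -0.60, SE 0.0780, adjusted p = 0.000314). Thbs1, which encodes thrombospondin, fell from 554, 513 and 482 CPM to 392, 317 and 380 CPM (-0.51, SE 0.0726, adjusted p = 0.000775), and the crosslinking enzyme Loxl3 fell by 0.46 (SE 0.0718, adjusted p = 0.00182). In these 3 genes every FGF library was below every library without FGF. Col7a1, the anchoring fibril collagen, rose (0.28, SE 0.0637, adjusted p = 0.0281), but not without control replicate 1, 2 or 3 or FGF replicate 1 or 3. These were the 4 called of 21 genes (list median -0.09), and without FGF replicate 2, 4 rather than 3 were lower. In the fit on all 12 libraries 1 was lower and 0 higher, and Thbs1 lost its call (adjusted p = 0.759). Of 9 mesenchymal genes, Foxc2 was called higher at an adjusted p of 0.0476, lost in 5 of the 6 fits that leave out a library, while Zeb1 (-0.60), Vim (-0.12) and Twist1 (0.06) did not pass, and 1 member was called lower without control replicate 3 or FGF replicate 1 or 2. None of 13 integrin genes was called, while without FGF replicate 2 the count was 2 higher and 2 lower. Beside Sema7a, 2 of 21 branching and guidance genes were called: the ephrin Efnb1 was higher (0.28, SE 0.0524, adjusted p = 0.00722, lost without control replicate 2 or 3) and the netrin Ntn1 was lower (-0.29, SE 0.0639, adjusted p = 0.0249, lost without control replicate 1 or 2 or FGF replicate 1 or 3).

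Genes of growth and metabolism did not pass the test. None of 30 S phase genes (median log2 -0.02, range -0.12 to 0.12) and none of 25 G2 and M phase genes (median -0.03, range -0.17 to 0.12) was called, Mki67 being at -0.10 and Ccnb1 at -0.01. The same was so of 25 ribosome biogenesis genes (median 0.07), 25 cytosolic ribosomal proteins (0.08), 23 cholesterol synthesis genes (0.07), 15 fatty acid synthesis genes (0.05), 18 glycolysis genes (0.06) and 25 respiratory chain genes (0.08). Without FGF replicate 2 the median of the ribosomal proteins was 0.01 and that of the respiratory chain 0.00, and 1 cholesterol gene was called higher. The exception near the cell cycle was Cdkn1a, the CDK inhibitor p21, which rose from 96.3, 98.9 and 98.9 CPM to 128, 136 and 130 CPM (log2 0.42, SE 0.0529, adjusted p = 0.000242). Among 14 p53 targets it was the single call, with Mdm2 (0.12) and Bax (0.12) not called. The stress-response phosphatase subunit Ppp1r15a (-0.39, SE 0.0624, adjusted p = 0.00227), the hypoxia gene Ndrg1 (0.30, SE 0.0517, adjusted p = 0.00351) and haem oxygenase, Hmox1 (0.36, SE 0.0850, adjusted p = 0.0367), were the single calls of their lists of 21, 20 and 18 genes. Hmox1 lost its call without control replicate 1, 2 or 3 or FGF replicate 1. In the fit on all 12 libraries Cdkn1a, Ppp1r15a, Ndrg1 and Hmox1 all lost their calls. Without FGF replicate 2, 3 hypoxia genes and 1 of the list of Hmox1 were called lower, as were 1 of 9 amino acid transporters and 1 of 11 luminal mammary genes, lists with no lower member in the fit on all 6 libraries.

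**Figure D4:**
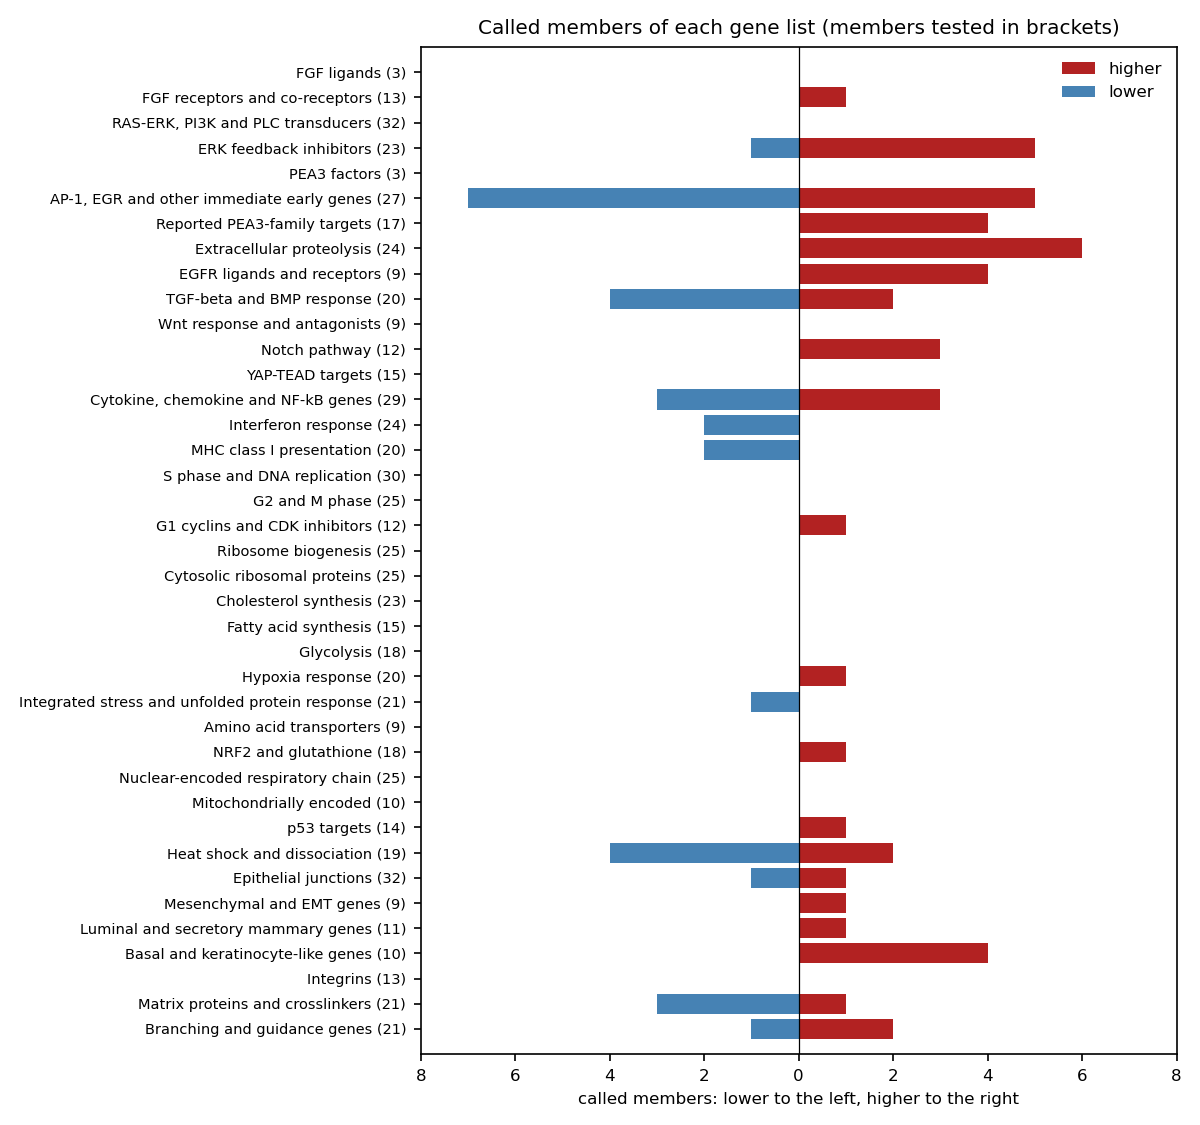
Number of called members of each gene list, higher to the right and lower to the left, with the number of members tested in brackets. Proteolysis genes (6), EGFR ligands (4) and basal genes (4) were called only as higher, immediate early genes in both directions (5 and 7), and the S phase, G2 and M phase, ribosome, lipid synthesis and glycolysis lists have no bar.

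ETV4 knockout cells gave a second set of libraries for the same ligands. Etv4 RNA was still present in them, at 113, 149 and 113 CPM without FGF and 112, 116 and 110 CPM with FGF, and their names carry a further tag, C39, that the labels do not explain. They do not say whether these cells were a pool or 1 clone. With FGF 18 genes were higher (0.157%) and 5 lower (0.0436%) of 11475 tested, together 0.200%. Without replicate 2 of the untreated knockout group, in which the ribosomal protein list took 3.09% of the counts against 2.11% to 2.33% in the other 5 knockout libraries, 847 were higher (7.31%) and 577 lower (4.98%), together 12.3%. By sign, 128 genes called higher in control cells were given a value here, and 114 (89.1%) had a positive log2 fold change. Of the 97 called lower with a value, 85 (87.6%) had a negative one. Over all genes given a value in both, 46.6% had the same sign. The medians were 0.36 in control and 0.35 in knockout cells for the higher genes, and -0.45 and -0.30 for the lower ones. Called in the same direction were 11 and 4, among them Plau, Mmp9, Mmp10, Dll4, Sema7a, Cdh17, Id3 and Col6a1. Without that library 119 of 128 and 88 of 97 had the same sign (56.5% of all genes), 93 and 53 were called in the same direction and 2 in the opposite one. A gene missing from the knockout fit could be given the value of a gene whose longer symbol begins with its own. Fgf1, for example, was given the value of Fgf11. The counts by sign, shares and medians may therefore include genes that were not tested in knockout cells.

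A test of the difference itself called 2 of 12079 genes (0.0166%). Mmp9 rose more in knockout cells: its log2 fold change was 0.57 in control and 1.54 in knockout cells (difference of control minus knockout -0.95, SE 0.111, adjusted p = 0.0123), from 75.5, 83.4 and 72.5 CPM to 234, 226 and 211 CPM in the latter. Mmp13, at 0.05 in control cells, was at 1.14 in knockout cells (difference -1.08, SE 0.142, adjusted p = 0.0243). Both matrix proteases thus had the larger log2 response in knockout cells, where both also started lower. In the scaling over 12 libraries, Mmp9 without FGF was at 119 to 127 CPM in control and 74.8 to 89.3 CPM in knockout cells. Mmp13 was at 49.4 to 54.6 and 28.4 to 36.8 CPM. The part of the starting level was not tested. Neither difference was called without control replicate 1, 2 or 3, FGF replicate 1 or 3 of the control cells or knockout FGF replicate 1 or 2. The number of genes called was 1 without FGF replicate 2 of the control cells, 6 without knockout replicate 3 and 120 without knockout replicate 2. The decreases of Fos (-1.12 in control, -0.29 in knockout), Nr4a1 (-1.44 and -0.63) and Klf4 (-1.07 and -0.50) were smaller in knockout cells. None of these differences was called (adjusted p = 0.0635 for each). Fos in knockout cells was at 539, 395 and 555 CPM without FGF and at 383, 432 and 406 CPM with FGF. Untreated knockout replicate 2 thus lay within the range of the FGF libraries. Rgs2 was at 5.30 to 7.22 CPM in knockout cells without FGF and at 2.26 to 2.93 CPM with FGF, scaled within the knockout libraries (-1.27, edgeR adjusted p = 0.0612). Errfi1 (0.39 in control, 0.03 in knockout) and Dusp5 (0.36 and -0.11) were likewise not called as different (adjusted p = 0.262 and 0.236).

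**Figure D5:**
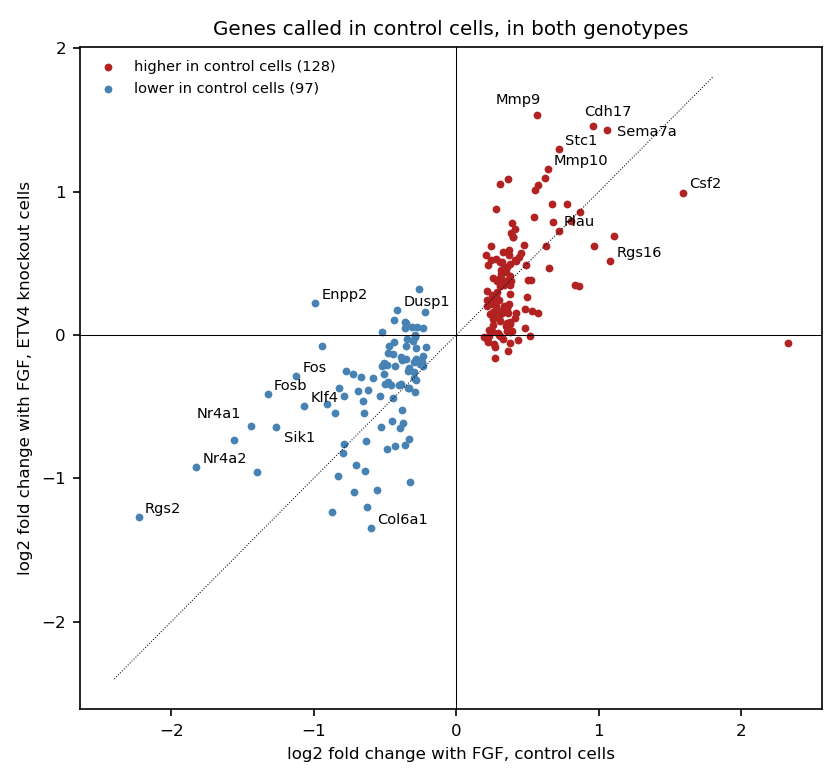
Log2 fold change with FGF in control cells (x axis) and in ETV4 knockout cells (y axis). Shown are the genes called in control cells and given a knockout value, 128 higher (red) and 97 lower (blue). Some may carry the knockout value of a gene with a longer symbol, as said in the text. The dotted line marks equal responses, and most points share their sign: 114 of the red points lie above 0 and 85 of the blue points below.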

How the data were processed

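Gene counts from 12 mRNA libraries of mouse 4T1 cells were used, 6 of them for the main comparison. FastQC 0.11.9, STAR 2.7.9a, featureCounts, R 4.1.1 and the builds hg38 and mm10 are named, without role or order, per the submitters' processing notes. The deposited table holds the authors' raw counts per gene symbol, and which annotation was counted, with which strand setting and with what rule for reads matching several genes, is not given in the sources used here. No row lacked a gene name (0 of 31017), and 14031 symbols had no count in the 6 libraries. No column of samples outside the labels was present.

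Counts were filtered with filterByExpr by group, scaled by TMM and tested with edgeR 4.0.16 (quasi-likelihood F-test, R 4.3.3), with Benjamini-Hochberg adjustment over all genes tested. Genes with an adjusted p under 0.05 were called. Every adjusted p in the text without another tool's name comes from this test, and an SE is the log2 fold change over the square root of F. The procedure was checked on simulated data drawn gene by gene. These held no deviation shared across a library, such as that of FGF replicate 2, so the check does not bear on it. The control response was fitted on its 6 libraries alone, the knockout response on the other 6, and their difference as an interaction over 12. CPM values are TMM-scaled, within the 6 libraries of a genotype unless stated otherwise. Libraries of 19461155 to 23193244 counts limit the precision of genes with few counts.

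The named genes were the 10 largest increases and 10 largest decreases among called genes with a name, groups that do not overlap and a mean log2 CPM of at least 1, the tested FGF ligands, receptors, PEA3 factors and feedback inhibitors, and up to 4 called genes of each other list by smallest adjusted p. Further list members, Lamb2, Gm42418 and Lars2 were named after their values were seen. The comparison and the gene lists were chosen with earlier results of these data known. Coordinates and exon lengths are of GENCODE models of mm10 (30416 symbols with 1 model, 48 with several, 553 with none), and promoter sequences are RefSeq's. Alternatives were other scalings (RLE, upper quartile), DESeq2 1.42.0, limma-voom (limma 3.58.1), other count filters, a replicate block, all 12 libraries in 1 fit, and each library left out in turn. Same-numbered libraries are not said to share a culture or day, so the numbers were not used as pairs. Some members of the gene lists enter the counts and are not reported here by name.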

Additional observations from a re-analysis of the deposited data

Results flagged for a closer look

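The response of 2 matrix protease genes to FGF differed between control and ETV4 knockout cells by a test of the difference itself, edgeR's interaction term over all 12 libraries. For Mmp9, which encodes a gelatinase, the response in control cells minus that in knockout cells was -0.95 on the log2 scale (SE 0.111, adjusted p = 0.0123). For Mmp13, which encodes a collagenase, it was -1.08 (SE 0.142, adjusted p = 0.0243). In the scaling over 12 libraries, Mmp13 in knockout cells was at 35.7, 28.4 and 36.8 CPM without FGF and at 73.7, 78.1 and 68.4 CPM with FGF, so that these groups did not overlap.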

How the results depend on the processing

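In control cells, 130 higher and 98 lower genes became 226 and 203 when every gene with at least 1 count was tested and 31 and 28 with all 12 libraries in the fit. Leaving out 1 library gave 57 to 201 higher and 52 to 139 lower, where leaving out control replicate 2 gave the lowest and FGF replicate 2 the highest counts. Scaling by RLE (129 and 101) or upper quartile (132 and 96), DESeq2 (154 and 120), limma-voom (124 and 90) and a stricter CPM filter (132 and 101) gave similar counts. A replicate block gave 103 and 92. The pairing has little hold in the data: deviations of same-numbered libraries correlated at 0.0498, -0.0854 and -0.0600. In knockout cells, 18 higher and 5 lower genes became 142 and 72 with DESeq2, 36 and 17 with every gene counted, 178 and 114 with all 12 libraries and 1 and 0 with the replicate block; 3 were lower with upper-quartile scaling or limma-voom. Leaving out 1 library gave 0 to 847 higher and 0 to 577 lower, the highest without knockout replicate 2. The 2 genes whose response differed between genotypes became 66 with DESeq2, 4 with limma-voom, 8 with every gene counted and 3 with the replicate block, and 0 to 120 without 1 library, the highest again without knockout replicate 2. Of 69 named genes called in control cells, 31 kept direction and call in every setting, 38 lost the call in at least 1 and 0 changed sign. Of 35 named genes not called, 3 passed in at least 1 setting (Fgfr2, Dusp6 and Spred3) and 11 changed sign when 1 library was left out. Their log2 fold changes then ran from -0.29 to 0.24 for Fgf1, -0.17 to 0.36 for Fgf20, -0.098 to 0.050 for Fgfr3, -0.030 to 0.025 for Fgfrl1, -0.047 to 0.058 for Fgfbp1, -0.12 to 0.0098 for Spred1, -0.028 to 0.086 for Spred2, -0.090 to 0.046 for Dusp16, -0.025 to 0.098 for Rasa1, -0.11 to 0.056 for Nf1 and -0.045 to 0.039 for Etv4. The causes were not tested. Counts of called list members, and the knockout fit without replicate 2, were added after seeing the data.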
